A study of Mus musculus with 18 samples.

Results

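The p53 target and GADD45 genes described here are 10 genes of DNA-damage and growth-arrest responses, picked by name out of the 50686 genes counted in a study of cultured mouse microglia. They are Gadd45a, Gadd45b, Gadd45g, Cdkn1a, Ccng1, Mdm2, Trp53inp1, Sesn1, Phlda3 and Zmat3. Bulk RNA was sequenced from 18 libraries, 3 for each of 6 genotypes. The genotypes are Tbk1+/-;Tak1ΔM/+;Ripk1D138N/+ (called the triple genotype here), Tbk1+/-;Tak1ΔM/+ (called double heterozygotes), Tbk1+/-;Ripk1D138N/D138N (called Ripk1-mutant Tbk1+/-), Tbk1+/-, Tak1ΔM/+ and WT. All were C57BL/6, untreated as far as the labels say, and taken from forebrains at postnatal day 2, after which mixed cultures were kept for 7 days, then for 7 more after a medium change, and microglia were shaken off and cultured in medium with serum. The labels do not say what drives the ΔM deletion of Tak1, whether it is complete, or how many animals a library pooled. The Ripk1 allele carries a substitution in the kinase domain that abolishes the kinase activity of RIPK1.

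The transcription factor p53 is stabilised after DNA damage and other stress and switches on genes that stop the cell cycle, repair DNA, limit growth signalling or kill the cell. Mdm2, itself such a target, marks p53 for degradation and closes the loop. The small acidic GADD45 proteins bind cyclin-dependent kinase 1, p21 and the MAP3K4 kinase. They are induced by several routes besides p53, among them ATF4 and CHOP for Gadd45a, and NF-kappaB and TGF-beta for Gadd45b. TBK1 and TAK1 are kinases of innate immune and TNF signalling that also hold RIPK1, a kinase of inflammation and cell death, in check.

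The start regions of 5 members are shown: those of the 3 GADD45 genes, and of Cdkn1a and Ccng1, where matches to a p53 site lie. RefSeq windows (build GRCm38.p6) run from 250 bases before the annotated start to 50 after it. Capitals mark matches on either strand to the p53 decamer, to 2 adjacent decamers with at most 1 mismatch (called the p53 site), to the octamer ATTTGCAT, to CCAAT and to TATAAA.
Gadd45a, chr6:67037358-67037657, minus strand: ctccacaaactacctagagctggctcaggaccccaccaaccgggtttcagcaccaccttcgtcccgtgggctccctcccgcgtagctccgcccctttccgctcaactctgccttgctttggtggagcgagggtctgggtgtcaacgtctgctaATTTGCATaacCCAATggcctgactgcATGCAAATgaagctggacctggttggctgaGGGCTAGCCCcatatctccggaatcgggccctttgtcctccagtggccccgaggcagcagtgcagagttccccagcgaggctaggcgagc
Gadd45b, chr10:80929841-80930140, plus strand: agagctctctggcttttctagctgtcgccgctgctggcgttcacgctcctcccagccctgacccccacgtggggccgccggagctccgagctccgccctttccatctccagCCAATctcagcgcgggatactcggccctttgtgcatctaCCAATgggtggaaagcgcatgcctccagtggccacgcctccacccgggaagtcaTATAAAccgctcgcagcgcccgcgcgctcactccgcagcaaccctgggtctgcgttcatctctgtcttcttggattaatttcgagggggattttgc
Gadd45g, chr13:51846425-51846724, plus strand: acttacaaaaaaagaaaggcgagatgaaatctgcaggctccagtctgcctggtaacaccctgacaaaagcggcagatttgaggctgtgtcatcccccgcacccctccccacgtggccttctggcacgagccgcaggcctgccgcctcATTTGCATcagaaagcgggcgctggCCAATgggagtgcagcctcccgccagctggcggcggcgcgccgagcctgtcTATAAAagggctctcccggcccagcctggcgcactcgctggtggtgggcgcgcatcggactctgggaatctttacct
Cdkn1a, chr17:29090729-29091028, plus strand: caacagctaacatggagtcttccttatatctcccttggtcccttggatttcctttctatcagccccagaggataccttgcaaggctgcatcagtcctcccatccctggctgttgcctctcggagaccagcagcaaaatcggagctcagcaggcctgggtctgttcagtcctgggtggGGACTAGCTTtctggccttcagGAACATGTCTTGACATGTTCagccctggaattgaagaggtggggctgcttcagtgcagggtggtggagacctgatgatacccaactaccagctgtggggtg
Ccng1, chr11:40755237-40755536, minus strand: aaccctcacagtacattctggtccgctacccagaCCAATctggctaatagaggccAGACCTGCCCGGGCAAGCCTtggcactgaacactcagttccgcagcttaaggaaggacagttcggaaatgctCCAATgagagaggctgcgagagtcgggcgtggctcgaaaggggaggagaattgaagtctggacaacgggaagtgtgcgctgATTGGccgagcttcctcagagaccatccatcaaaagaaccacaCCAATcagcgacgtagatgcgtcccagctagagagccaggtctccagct
Counting from the annotated start, the p53 site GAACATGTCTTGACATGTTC begins at position -51 of Cdkn1a, and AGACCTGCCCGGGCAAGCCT begins at -195 of Ccng1. The Cdkn1a position counts from its upstream start, whose window begins at base 29090729, while its downstream window begins at base 29093519. Each site holds a full decamer match and 1 mismatch. Such a site was found in 29 of all 32851 windows in the table (0.0883%), and a decamer in 8.36% of them. The octamer occurs in both orientations in the Gadd45a window, at -97 and -70, and at -103 of Gadd45g, and is in 1.74% of all windows. TATAAA begins at -46 of Gadd45b and -27 of Gadd45g, and is in 13.6% of all windows, while CCAAT is in 37.4%. Windows were found for 8 of the 10 members, 10 windows in all, and those of Mdm2, Sesn1 and Phlda3 and the downstream Cdkn1a window held no p53 site. Decamers set apart by other bases were not counted as a p53 site, and sequence outside the windows was not searched. A window without a site therefore does not show that the gene lacks one. Single decamers outside a p53 site begin at -73 of Cdkn1a, -40 of Gadd45a, -186 of Mdm2 and -173 of one Sesn1 window. Trp53inp1 and Zmat3 are named only. In GENCODE M21, on GRCm38, all 10 are protein-coding, and the members not shown lie at chr10:117688875-117710758, minus strand (Mdm2), chr4:11156431-11174379, plus (Trp53inp1), chr10:41809935-41908424, plus (Sesn1), chr1:135766119-135769136, plus (Phlda3) and chr3:32334792-32366014, minus (Zmat3).

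Total counts per library lay between 8016559 and 22989116, and all 10 members passed the low-count filter, as did 13447 genes in all. Levels are given as CPM, counts scaled to a common library total after trimmed-mean scaling. Tbk1 checks the labels: it had 55.1 to 66.0 CPM in double heterozygotes and 50.5 to 65.6 CPM in Tbk1+/- libraries, against 104 to 149 CPM in WT. However, the 3 libraries labelled as the triple genotype had 107 to 123 CPM, and replicates 1 and 3 labelled as Ripk1-mutant Tbk1+/- had 130 and 131 CPM. These 5 libraries therefore have Tbk1 near WT, against their labels. Map3k7, the gene of TAK1, had 8.76 ± 1.33 CPM in Tak1ΔM/+ and 13.5 ± 4.94 CPM in WT (SD, n = 3 each), a log2 difference of -0.62 that did not pass the test (edgeR adjusted p = 0.561). The deleted part of Map3k7 is not given, so its total count may not check the deletion. The summed level of 12 microglia markers was 7938 CPM or more in every library, with Csf1r at 1619 CPM or more, P2ry12 at 2.97 to 17.4 CPM and Siglech at 0 to 1.06 CPM. Of 10 oligodendrocyte, 10 neuron and 10 other blood cell markers, the summed levels stayed at or below 90.5, 20.7 and 4.39 CPM in every library. Astrocyte markers summed to 66.6 CPM or less, and fibroblast, mural and endothelial markers to 36.2 CPM or less. Border macrophage and monocyte markers were higher, summing to 323 to 887 CPM, with Mrc1 at 142 to 376 CPM and Pf4 at 104 to 365 CPM. Nothing in the labels says that the libraries came from separate cultures, so the p-values measure only the spread between these libraries, which may be technical.

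The GADD45 genes had their highest levels in double heterozygotes. Gadd45a had 11.4, 10.7 and 8.31 CPM in double heterozygotes, against 2.41, 1.41 and 1.68 CPM in WT. In the other genotypes it had 3.44, 1.39 and 1.17 CPM in libraries labelled as the triple genotype, 1.76, 2.29 and 1.07 CPM in libraries labelled Ripk1-mutant Tbk1+/-, 2.36, 2.46 and 0.796 CPM in Tbk1+/- and 6.02, 4.75 and 0.618 CPM in Tak1ΔM/+. All 3 double-heterozygous libraries stood above the other 15, and the libraries of the other 5 genotypes overlapped. Replicates 1 and 2 of Tak1ΔM/+ came next, while replicate 3 of the same genotype was the lowest of all 18. These levels rest on few reads: 95 to 215 in double heterozygotes and 24 to 38 in WT. In this unstranded preparation 337 of the 1764 exon bases of Gadd45a also belong to E230016M11Rik on the opposite strand, which had 107 reads over all libraries, against 1083 for Gadd45a.

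Gadd45b was likewise highest in double heterozygotes. It had 21.3, 29.9 and 21.3 CPM in double heterozygotes, against 5.06, 5.48 and 7.02 CPM in WT. The remaining libraries had 10.4, 7.68 and 7.65 CPM under the triple-genotype label, 8.94, 10.8 and 7.62 CPM in libraries labelled Ripk1-mutant Tbk1+/-, 4.15, 9.82 and 1.72 CPM in Tbk1+/- and 10.4, 4.39 and 7.75 CPM in Tak1ΔM/+. The double-heterozygous libraries lay apart from all others, and each further neighbour in the order of means overlapped the next. Gadd45g, the third member of the family, differed less: it had 21.7, 15.1 and 16.3 CPM in double heterozygotes and 10.0, 14.1 and 13.8 CPM in WT. Its 12.7, 13.9 and 13.2 CPM under the triple-genotype label lay below every double-heterozygous library and within the WT range. It had 12.7, 5.97 and 18.8 CPM in libraries labelled Ripk1-mutant Tbk1+/-, 6.61, 7.94 and 11.01 CPM in Tbk1+/- and 17.7, 9.02 and 6.93 CPM in Tak1ΔM/+. Replicate 1 of Tak1ΔM/+ and replicate 3 labelled Ripk1-mutant Tbk1+/- reached into the double-heterozygous range.

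**Figure D1:**
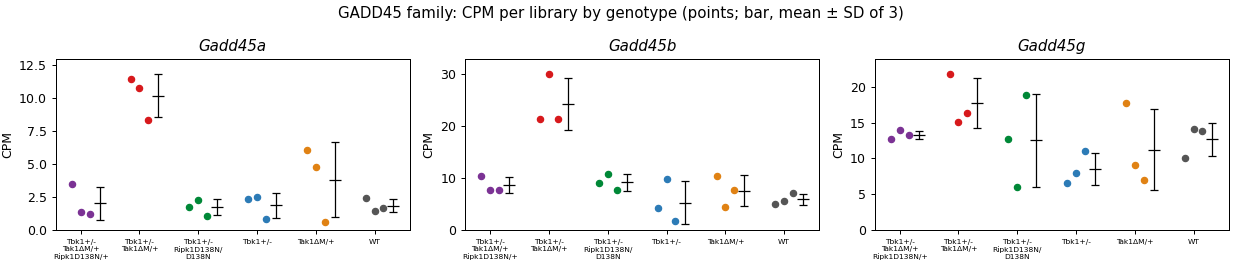
CPM of Gadd45a, Gadd45b and Gadd45g in each library (points) by genotype along the x axis, with the mean and SD of 3 libraries beside them. The double-heterozygous libraries lie above all others for Gadd45a (8.31 to 11.4 CPM) and Gadd45b (21.3 to 29.9 CPM), and overlap 2 other genotypes for Gadd45g.

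The growth-arrest targets did not follow the GADD45 genes. Cdkn1a, which encodes the cyclin-dependent kinase inhibitor p21, had 147, 162 and 157 CPM in double heterozygotes, against 169, 163 and 133 CPM in WT. It was highest in Tbk1+/-, with 207, 212 and 206 CPM, above every other library. It had 203, 162 and 188 CPM in Tak1ΔM/+, 137, 162 and 174 CPM under the triple-genotype label and 134, 183 and 140 CPM in libraries labelled Ripk1-mutant Tbk1+/-. Ccng1, which encodes cyclin G1, a regulator of p53 through protein phosphatase 2A, had 118, 158 and 110 CPM in double heterozygotes and 235, 224 and 186 CPM in WT, without overlap. Its Tbk1+/- libraries were again the highest by mean, at 223, 287 and 266 CPM. The others had 142, 187 and 172 CPM (triple-genotype label), 157, 190 and 166 CPM (labelled Ripk1-mutant Tbk1+/-) and 167, 203 and 201 CPM (Tak1ΔM/+). Of the pair with a p53 site in the windows shown, Cdkn1a was thus within its WT range in double heterozygotes and Ccng1 below it.

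Mdm2, the ubiquitin ligase of p53, was highest in double heterozygotes. It had 137, 155 and 144 CPM there, against 101, 114 and 97.9 CPM in WT. The other 12 libraries ranged from 82.0 CPM in Tak1ΔM/+ replicate 3 to 126 CPM, so none reached the double-heterozygous values. Trp53 itself had 84.2 ± 3.50 CPM in double heterozygotes and 82.1 ± 3.91 CPM in WT (SD, n = 3 each).

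Trp53inp1, which encodes a nuclear and autophagy-related protein that promotes p53-dependent death, moved the other way. It had 24.1, 16.7 and 19.7 CPM in double heterozygotes, against 48.9, 43.9 and 66.7 CPM in WT. Tbk1+/- libraries had 108, 65.4 and 80.5 CPM, Tak1ΔM/+ 28.5, 41.4 and 48.3 CPM, those labelled Ripk1-mutant Tbk1+/- 46.9, 37.2 and 43.5 CPM and those labelled as the triple genotype 36.8, 31.9 and 39.1 CPM. The double-heterozygous libraries were the lowest 3 of 18, and the means spanned 4.19-fold from the highest genotype, Tbk1+/-, to double heterozygotes. Neighbouring genotypes between these ends overlapped, except that the triple-genotype label lay above double heterozygotes.

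Sesn1, which encodes the stress-inducible mTORC1 inhibitor sestrin 1, had 183, 183 and 165 CPM in double heterozygotes and 197, 182 and 342 CPM in WT. Above 300 CPM it had 4 libraries, from 3 genotypes: WT replicate 3, replicate 1 under the triple-genotype label, and replicates 1 and 3 labelled Ripk1-mutant Tbk1+/-. The mitochondrial share of the counts was 0.370% to 0.671% in those 4 libraries and 0.367% to 2.20% in the other 14. Phlda3, which encodes a repressor of AKT signalling, had 8.43, 14.99 and 15.8 CPM in double heterozygotes and 14.9, 14.0 and 10.4 CPM in WT. It had 19.9, 16.5 and 29.8 CPM under the triple-genotype label, 15.6, 9.99 and 11.7 CPM in libraries labelled Ripk1-mutant Tbk1+/-, 18.2, 10.9 and 8.42 CPM in Tbk1+/- and 41.4, 31.7 and 14.6 CPM in Tak1ΔM/+. Replicates 1 and 2 of Tak1ΔM/+ were the highest of all 18 libraries. Zmat3, which encodes an RNA-binding zinc-finger protein, had 24.2, 26.2 and 25.2 CPM in double heterozygotes and 28.4, 34.5 and 34.4 CPM in WT. Over all 18 libraries it lay between 21.1 and 44.2 CPM.

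**Figure D2:**
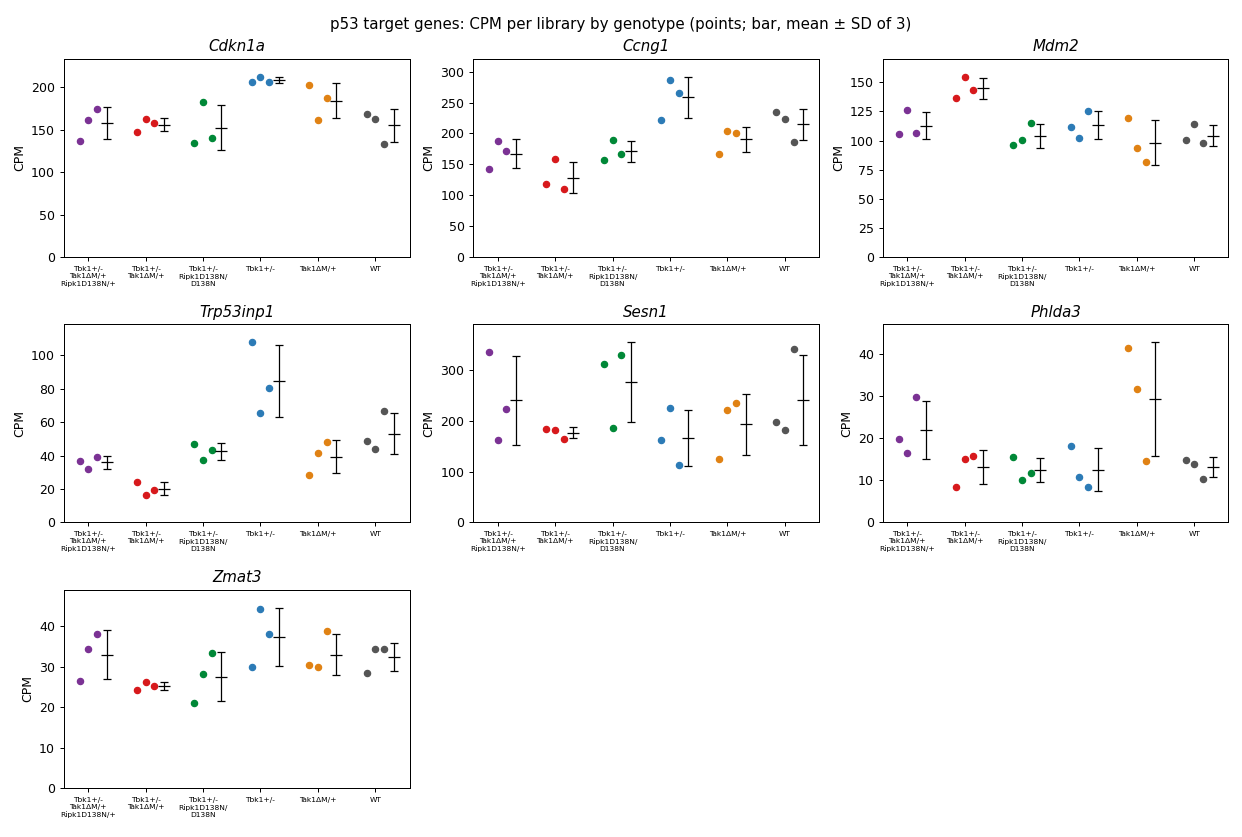
CPM of the 7 p53 target genes in each library (points) by genotype, with the mean and SD of 3 libraries; each panel has its own y axis from 0. By mean, double heterozygotes are lowest for Ccng1 and Trp53inp1 and highest for Mdm2, Tbk1+/- libraries are highest for Cdkn1a at 206 to 212 CPM, and Sesn1 has single libraries above 300 CPM in 3 genotypes.

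Per kilobase of exon, so that genes can be compared, the mean levels over the 18 libraries were 54.1 CPM per kilobase for Sesn1, 53.7 for Ccng1, 47.5 for Cdkn1a and 22.2 for Mdm2. Phlda3 had 10.9, Gadd45g 10.8, Trp53inp1 7.10, Gadd45b 6.34, Zmat3 2.75 and Gadd45a 2.02 CPM per kilobase. Gadd45g was thus the most abundant GADD45 gene by this mean. In double heterozygotes Gadd45b reached 15.2 CPM per kilobase, beside 15.1 for Gadd45g and 5.75 for Gadd45a, whereas WT libraries had 3.68, 10.8 and 1.04. Among all 18 libraries Gadd45a and Gadd45b spanned 18.5-fold and 17.3-fold, Trp53inp1 6.46-fold, and Cdkn1a 1.59-fold, the narrowest of the 10.

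**Figure D3:**
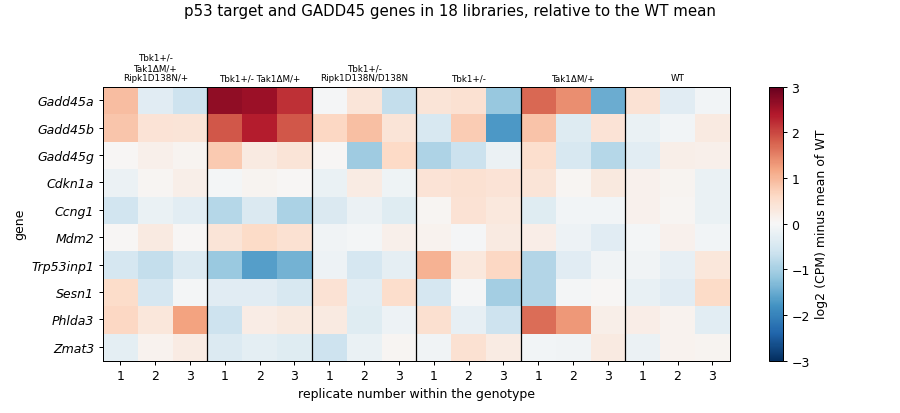
Log2 CPM of each gene minus its WT mean, by library, with replicate numbers under the columns and genotypes above them (red, higher than WT; blue, lower). The 3 double-heterozygous columns are red for Gadd45a and Gadd45b and blue for Trp53inp1 and Ccng1, and replicates 1 and 2 of Tak1ΔM/+ are red for Gadd45a and Phlda3.

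Double heterozygotes were compared with WT, Tbk1+/- and Tak1ΔM/+ to ask what both lesions change beyond either alone. Because the increases of Gadd45a and Gadd45b against WT were known when the genes were chosen, the comparisons that use double-heterozygous or WT libraries are given for the members as descriptions, without p-values. Calls of members in these comparisons, and their counts beside the share of all genes, are descriptions as well. They do not test whether the members differ more often than other genes. A gene is called where its edgeR quasi-likelihood p, adjusted over all 13447 genes, is under 0.05. With WT as the comparison, Gadd45a had a log2 fold change of 2.46 (SE 0.65). It was 2.04 (SE 0.44) for Gadd45b, 0.49 (SE 0.36) for Gadd45g and 0.48 (SE 0.14) for Mdm2. It was -1.39 (SE 0.22) for Trp53inp1, -0.74 (SE 0.16) for Ccng1, -0.44 (SE 0.32) for Sesn1, -0.37 (SE 0.20) for Zmat3, -0.01 (SE 0.37) for Phlda3 and 0.01 (SE 0.14) for Cdkn1a. Gadd45a and Gadd45b were called higher and Trp53inp1 and Ccng1 lower, 4 of 10 members, where 6.07% of all tested genes were called, 2.16% higher and 3.9% lower. The libraries did not overlap for 4 higher and 3 lower members, where 15.2% and 14.4% of all genes were so placed. The median log2 fold change was 0.0004 over the members and 0.0038 over all tested genes.

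Some of these calls were lost when 1 library was left out. The call of Gadd45a was lost without any of the 6 libraries compared, that of Gadd45b without WT replicate 1 or 2, and that of Ccng1 without double-heterozygous replicate 1 or 3, whereas Trp53inp1 kept its call in each case. The mitochondrial share of counts was 0.367% to 0.512% in double heterozygotes and 0.671% to 1.62% in WT. Those ranges did not overlap, so share and genotype cannot be told apart against WT, for the members or for the gene lists below. Once the share entered the fit, Trp53inp1 was the 1 member still called, where 216 of all genes were. The log2 fold changes of Gadd45a and Gadd45b were then 2.12 and 1.78. Astrocyte markers (10 genes) summed to 21.9 to 29.98 CPM in double heterozygotes and 43.7 to 56.1 CPM in WT. Of 7 tested, 3 were higher and 4 lower, with a median log2 fold change of -0.05 and 0 called. Fibroblast, mural and endothelial markers (10 genes) summed to 4.96 to 5.72 CPM in double heterozygotes and 9.43 to 32.8 CPM in WT. Of 6 tested, 2 were higher and 4 lower, with a median of -1.95 and 0 called. Their part in these differences was not tested. In bulk samples fewer cells of a type and less RNA per cell cannot be told apart.

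Against Tbk1+/-, 5 members were called, where 14.7% of all genes were, 6.44% higher and 8.24% lower. Gadd45a (log2 fold change 2.42, SE 0.64) and Gadd45b (2.20, SE 0.44) were higher in double heterozygotes, and Trp53inp1 (-2.06, SE 0.23), Ccng1 (-1.01, SE 0.16) and Cdkn1a (-0.42, SE 0.14) were lower. The call of Cdkn1a was lost without any of the 6 libraries and that of Gadd45a without Tbk1+/- replicate 3 or double-heterozygous replicate 1. The mitochondrial share was 1.82% to 2.20% in Tbk1+/-. It was 0.367% to 0.512% in double heterozygotes, so share and genotype cannot be told apart against Tbk1+/- either, for the gene lists as well. In a fit that also holds this share, 1 member was called, Trp53inp1. There 49 of all genes were called, against 1974 as reported. Markers of border macrophages and monocytes (8 genes) summed to 392 to 436 CPM in double heterozygotes and 505 to 887 CPM in Tbk1+/-. Oligodendrocyte-lineage markers (10 genes, 8 tested) summed to 73.7 to 87.0 CPM in double heterozygotes and 60.1 to 65.5 CPM in Tbk1+/-, with 1 called higher and a median log2 fold change of 1.89. Microglia markers (12 genes, 11 tested) summed to 8359 to 9070 CPM in double heterozygotes and 9264 to 10696 CPM in Tbk1+/-, with 4 called lower. The part of these markers was not tested.

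Against Tak1ΔM/+, Gadd45b (log2 fold change 1.67, SE 0.43) and Mdm2 (0.56, SE 0.14) were called higher and Trp53inp1 (-0.96, SE 0.22) lower in double heterozygotes, where 2.79% of all genes were called, 0.736% higher and 2.05% lower. Gadd45a was 1.41 higher (SE 0.62) and Phlda3 -1.17 (SE 0.37), both uncalled. Each of the 3 calls remained with 1 of the 6 libraries left out, Tak1ΔM/+ replicate 1, and was lost without any of the other 5. In the fit that also holds the mitochondrial share, no member was called, where 150 of all genes were. That share was 0.453% to 1.505% in Tak1ΔM/+. Summed over 4 genes, Y-linked RNA was 68.1 to 89.9 CPM in double heterozygotes and 0 to 2.78 CPM in Tak1ΔM/+, so sex and genotype cannot be told apart in this comparison. Oligodendrocyte-lineage markers summed to 73.7 to 87.0 CPM in double heterozygotes and 52.5 to 69.3 CPM in Tak1ΔM/+, and neuron markers (10 genes) to 6.37 to 8.48 CPM in double heterozygotes and 2.34 to 4.97 CPM in Tak1ΔM/+, and their part was not tested.

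The interaction sets the difference between double heterozygotes and WT against the sum of the differences of Tbk1+/- and of Tak1ΔM/+ from WT. Sex was not balanced across these genotypes. Summed Y-linked RNA was 68.1 to 89.9 CPM in double heterozygotes, 62.3 to 207 CPM in Tbk1+/-, 0 to 2.78 CPM in Tak1ΔM/+ and 0 to 116 CPM in WT. The part of sex was not tested. Trp53inp1 was called, at -1.63 (SE 0.31) on the log2 scale, where 1.75% of all genes were. Tbk1+/- alone was 0.67 above WT and Tak1ΔM/+ alone -0.44, while double heterozygotes were at -1.39. Gadd45b had 1.83 (SE 0.61), Gadd45a 1.37 (SE 0.88) and Gadd45g 1.23 (SE 0.52), all uncalled. The interaction call was lost without replicate 2 or 3 of Tak1ΔM/+ or of double heterozygotes. It was also lost in the fit that holds the mitochondrial share and without the 5 libraries with Tbk1 near WT, at -1.62 in both. There 14 and 38 of all genes were called, against 235 as reported. Those 5 libraries belong to genotypes outside the interaction. Leaving them out changes the shared filter, scaling and estimate of the spread, not the libraries compared. Over all 6 genotypes together, Gadd45a, Gadd45b, Ccng1 and Trp53inp1 were called, where 7.18% of all genes were.

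The libraries labelled as the triple genotype were set against double heterozygotes to ask what the Ripk1 allele changes. None of the 10 members was called by edgeR, where 2.45% of all genes were. At an unadjusted p under 0.05, 5 members passed, where 15.5% of all genes did. The log2 fold change was -2.34 (SE 0.64) for Gadd45a, -1.49 (SE 0.43) for Gadd45b, -0.42 (SE 0.36) for Gadd45g and -0.36 (SE 0.14) for Mdm2. It was 0.83 (SE 0.22) for Trp53inp1, 0.76 (SE 0.37) for Phlda3, 0.38 (SE 0.16) for Ccng1 and 0.02 (SE 0.14) for Cdkn1a. The libraries did not overlap for 3 higher and 4 lower members, where 12.8% and 11.4% of all genes were so placed. The higher ones were Trp53inp1, Phlda3 and Zmat3, and the lower ones Mdm2 and the 3 GADD45 genes. DESeq2 called 3 members (Gadd45a, Gadd45b and Trp53inp1), where it called 743 of all genes. Limma-voom called 2 (Gadd45a and Gadd45b), where it called 243 of all genes, against 330 by edgeR. These 3 libraries have Tbk1 near WT, so a difference in Ripk1 and a difference in Tbk1 cannot be told apart here. Nor can sex, since summed Y-linked RNA was 0 to 65.9 CPM under the triple-genotype label and 68.1 to 89.9 CPM in double heterozygotes. Fibroblast, mural and endothelial markers summed to 10.1 to 36.2 CPM under that label and 4.96 to 5.72 CPM in double heterozygotes, and their part was not tested. The mitochondrial share was 0.370% to 1.095% under that label, beside 0.367% to 0.512% in double heterozygotes.

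Neither single lesion gave a called member against WT. In Tbk1+/- against WT the log2 fold changes ran from -0.57 to 0.67, with Trp53inp1 at 0.67 (SE 0.22) and Cdkn1a at 0.43 (SE 0.14), and 0.0521% of all genes were called. At an unadjusted p under 0.05 there were 2 members, where 10.2% of all genes passed. DESeq2 called none of the members, where it called 98 of all genes. In Tak1ΔM/+ against WT they ran from -0.44 to 1.16, with Phlda3 at 1.16 (SE 0.37) and Gadd45a at 1.06 (SE 0.63), and 0.0149% of all genes were called. There 1 member passed an unadjusted p under 0.05, where 9.47% of all genes did. DESeq2 called none of the members, where it called 82 of all genes. Without the low-count filter 1 member, Phlda3, was called, where 251 of all genes were. For both Phlda3 and Gadd45a, replicates 1 and 2 of Tak1ΔM/+ were high and replicate 3 was within or below the WT range. Summed Y-linked RNA was 62.3 to 207 CPM in Tbk1+/-, 0 to 2.78 CPM in Tak1ΔM/+ and 0 to 116 CPM in WT, and the part of sex was not tested.

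**Figure D4:**
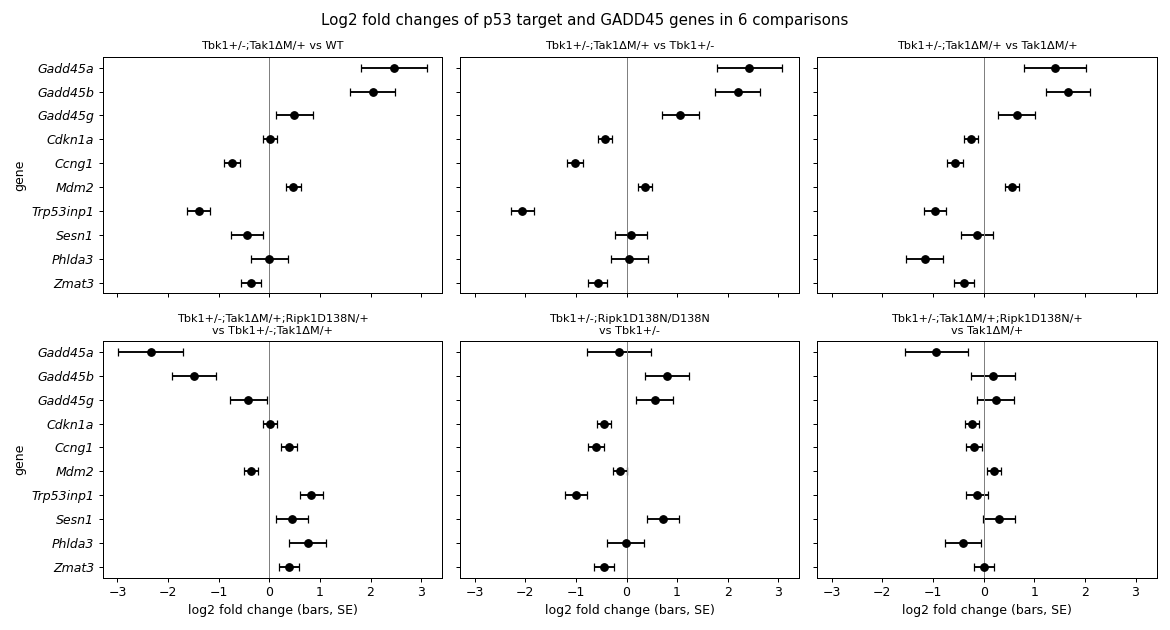
Log2 fold changes (points) with standard errors (bars) of the 10 genes in 6 comparisons, each named above its panel with the genotype on top first. Gadd45a and Gadd45b lie to the right of 0 and Trp53inp1 and Ccng1 to the left in the 3 comparisons of double heterozygotes, and the signs are opposite for the triple-genotype label against double heterozygotes.

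Of the comparisons made, 2 share no library with the one in which the genes were chosen. In libraries labelled Ripk1-mutant Tbk1+/- against Tbk1+/-, none of the 10 members was called by edgeR, where 0.521% of all genes were, and 5 passed an unadjusted p under 0.05, where 15.3% of all genes did. Trp53inp1 was the nearest to the threshold: its log2 fold change was -0.99 (95% interval -1.45 to -0.53, adjusted p = 0.0524). Ccng1 had -0.60 (-0.92 to -0.27, adjusted p = 0.0900) and Cdkn1a -0.45 (-0.74 to -0.16, adjusted p = 0.129). The libraries of both genotypes did not overlap for these 3 genes, which were lower in 3 of 3 libraries labelled Ripk1-mutant Tbk1+/-. Replicates 1 and 3 of that label have Tbk1 near WT, so a difference in Ripk1 and a difference in Tbk1 cannot be told apart here. Such lower placement held for 8.04% of all genes. Sesn1 had 0.73 (0.06 to 1.39, adjusted p = 0.286), Zmat3 -0.44 (-0.85 to -0.03, adjusted p = 0.290) and Gadd45b 0.80 (-0.11 to 1.71, adjusted p = 0.404). Gadd45g had 0.56 (-0.21 to 1.33), Gadd45a -0.15 (-1.48 to 1.19), Mdm2 -0.12 (-0.42 to 0.17) and Phlda3 -0.01 (-0.78 to 0.76). Summed Y-linked RNA was 0 to 45.7 CPM under the Ripk1-mutant Tbk1+/- label and 62.3 to 207 CPM in Tbk1+/-, so sex and genotype cannot be told apart. The mitochondrial share was 0.449% to 1.57% under that label and 1.82% to 2.20% in Tbk1+/-. Oligodendrocyte-lineage markers (10 genes) summed to 68.5 to 90.5 CPM under that label and 60.1 to 65.5 CPM in Tbk1+/-. Of 8 tested, 4 were higher and 4 lower, and 0 were called. Neuron markers (10 genes) summed to 4.99 to 18.7 CPM under that label and 0.772 to 5.20 CPM in Tbk1+/-. Of 6 tested, 6 were higher and 0 were called. The part of these markers was not tested.

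Trp53inp1 crossed the threshold in this comparison with other settings: the adjusted p was 0.00208 by DESeq2, 0.0499 by limma-voom, 0.0495 with DESeq2 size factors and 0.0302 with a stricter filter. It was 0.224 in a fit of these 6 libraries alone and 0.347 in the fit that holds the mitochondrial share, at a log2 fold change of -0.99 in both. Without Tbk1+/- replicate 2 the adjusted p was 0.00662, and without any other of the 6 libraries it was 0.0851 to 0.213. Gadd45b passed without that same library, at a log2 fold change of 1.60 (adjusted p = 0.0290). Cdkn1a passed without replicate 2 labelled Ripk1-mutant Tbk1+/-, at -0.63 (adjusted p = 0.0471). Without the libraries with Tbk1 near WT, which leaves replicate 2 labelled Ripk1-mutant Tbk1+/- as a lone library assumed to vary like the others, Trp53inp1 had -1.18 (adjusted p = 0.485).

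In libraries labelled as the triple genotype against Tak1ΔM/+, no member was called, where 0.00744% of all genes were, and none passed an unadjusted p under 0.05, where 5.27% of all genes did. DESeq2 also called none of the members, where it called 19 of all genes. The largest difference was -0.93 for Gadd45a (95% interval -2.25 to 0.39, adjusted p = 0.985). The intervals of Cdkn1a (-0.51 to 0.06), Mdm2 (-0.09 to 0.49), Zmat3 (-0.40 to 0.41), Ccng1 (-0.51 to 0.14) and Trp53inp1 (-0.59 to 0.33) were the narrower ones. Those of Gadd45b (-0.71 to 1.08), Gadd45g (-0.53 to 1.00), Phlda3 (-1.16 to 0.35) and Sesn1 (-0.35 to 0.98) were wider, and all held 0. Tbk1 had 107 to 123 CPM under the triple-genotype label and 88.0 to 133 CPM in Tak1ΔM/+. An effect of Tbk1+/- therefore cannot be read from this comparison. Summed Y-linked RNA was 0 to 65.9 CPM under that label and 0 to 2.78 CPM in Tak1ΔM/+, and the part of sex was not tested.

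Other p53 target and regulator genes were mixed. Of 50 such genes 48 were tested, and in double heterozygotes against WT 3 rose and 2 fell, where 6.07% of all genes were called. The median log2 fold change was 0.13 over the 48 and 0.0038 over all genes. Plk2, a p53-induced polo-like kinase, had 663, 649 and 630 CPM in double heterozygotes, against 254, 294 and 290 CPM in WT (log2 fold change 1.21, SE 0.22, edgeR adjusted p = 0.00465). The libraries labelled as the triple genotype had 295, 280 and 247 CPM, and no library outside the double heterozygotes exceeded 493 CPM. Gdf15, a stress cytokine, rose by 2.67 (SE 0.71, adjusted p = 0.0342), with 24.8, 27.4 and 31.6 CPM in double heterozygotes and 4.05, 5.60 and 3.48 CPM in WT, and Tak1ΔM/+ replicate 1 had 24.5 CPM. Tap1, a peptide transporter also induced by interferon, rose by 0.62 (adjusted p = 0.0265). Gtse1, which restrains p53 in G2, fell by 1.76 (adjusted p = 0.0287), and Ckap2, a spindle-associated protein, fell by 1.36 (adjusted p = 0.0305). Plk2 kept its call without each of the 6 libraries, whereas Gdf15 and Tap1 lost it without any of them, Gtse1 without any but 1 and Ckap2 without any but 2. Against Tbk1+/-, 5 of the 48 rose and 5 fell, where 14.7% of all genes were called. Those that rose most were Gdf15 (2.58), Bbc3, a killer protein of the BCL2 family (1.28), Plk2 (1.22) and Tap1 (1.13). Those that fell most were Ckap2 (-2.83), Psrc1, a microtubule regulator (-2.46), Gtse1 (-2.35) and Ephx1, an epoxide hydrolase (-1.14). In the fit that also holds the mitochondrial share, 1 of the 5 calls against WT remained (Plk2) and 1 of the 10 against Tbk1+/- (Ckap2). Leaving out single libraries ended the calls of Gdf15 and Ephx1 in 3 of 6 cases and that of Bbc3 in all but 1, and the other 5 kept theirs.

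Under the triple-genotype label, Plk2 fell by 1.24 against double heterozygotes (adjusted p = 0.00668, kept without each of the 6 libraries), while Psrc1 and Ckap2 rose by 1.83 (adjusted p = 0.0371) and 1.53 (adjusted p = 0.0271). The call of Psrc1 was lost without any of the 6 libraries and that of Ckap2 without any but 2. Against Tak1ΔM/+, double heterozygotes had Plk2 higher by 1.06 (adjusted p = 0.0144) and Abhd4, a lipase, lower, at -0.51 (adjusted p = 0.0418). The call of Plk2 was lost without replicate 2 or 3 of Tak1ΔM/+ or replicate 1 or 2 of double heterozygotes, and that of Abhd4 without any library but Tak1ΔM/+ replicate 1. With the mitochondrial share in the fit, Plk2 kept its call in both comparisons and Ckap2 its own, and those of Psrc1 and Abhd4 were lost. In Tbk1+/- against WT, in Tak1ΔM/+ against WT and in both comparisons that share no library with the choice of genes, 0 of the 48 were called by edgeR. In each of these at most 0.521% of all genes were called. At an unadjusted p under 0.05 there were 7 and 9 in the first pair, where 10.2% and 9.47% of all genes passed. In the second pair there were 7 and 3, where 15.3% and 5.27% of all genes passed. DESeq2 called 1 in Tbk1+/- against WT and 2 in libraries labelled Ripk1-mutant Tbk1+/- against Tbk1+/-. There it called 98 and 490 of all genes.

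Of 15 DNA-damage kinases and sensors, 1 was called lower in double heterozygotes against WT and none higher, where 6.07% of all genes were called. That gene was Rad17, a clamp loader of the damage checkpoint. It had 23.7, 24.3 and 18.8 CPM in double heterozygotes and 28.2, 36.5 and 40.6 CPM in WT (log2 fold change -0.66, edgeR adjusted p = 0.0366, lost without any but 1 of the 6 libraries). Against Tbk1+/-, where 14.7% of all genes were called, Rad17 (-1.06), Brca1 (-2.94) and H2afx (-0.77) fell. Of these, H2afx lost its call without any but 1 of the libraries. Of 26 partners and inducers of GADD45 proteins, 4 rose and 1 fell against WT, where 2.16% of all genes were called higher and 3.9% lower. Ddit3, the stress transcription factor CHOP, had 38.9, 40.9 and 41.7 CPM in double heterozygotes and 8.93, 13.3 and 12.1 CPM in WT (1.82, SE 0.28, adjusted p = 0.00171, kept without each of the 6 libraries). Tgfb1 rose by 1.51 (adjusted p = 0.0172), Atf4 by 1.00 (adjusted p = 0.0367) and Atf3 by 0.71 (adjusted p = 0.0312), of which Atf4 and Atf3 lost the call without any of the 6 libraries and Tgfb1 without any but 2. Atf4 had 226 CPM in Tak1ΔM/+ replicate 1, beside 214, 202 and 213 CPM in double heterozygotes, and 129 CPM or less in WT. The same Tak1ΔM/+ library had 25.2 CPM of Ddit3. Under the triple-genotype label Ddit3 had 13.2, 13.5 and 16.9 CPM and fell by 1.48 against double heterozygotes (adjusted p = 0.00901, lost without replicate 2 of that label). In double heterozygotes it was also 1.29 above Tak1ΔM/+ (adjusted p = 0.0178, lost without any library but Tak1ΔM/+ replicate 1). Against Tbk1+/-, where 6.44% of all genes were called higher and 8.24% lower, 5 of the 26 rose. They were led by Tgfb1 (1.63), Ddit3 (1.35), Atf3 (0.94) and Atf4 (0.88). Ccnb1 (-4.08), Brca1 (-2.94), Cdk1 (-1.58) and the p38 kinase activator Map2k6 (-1.35) fell, and the calls of Atf4 and Map2k6 were lost without any of the 6 libraries. With the mitochondrial share in the fit, Ddit3 and Ccnb1 were the 2 of these 5 partners still called against WT, Rad17 was not called, and none of the calls of either list against Tbk1+/- remained.

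Cell-cycle genes were the list with the most calls, though the lists were chosen with earlier results of these data known. Of 30 genes, 13 fell and none rose in double heterozygotes against WT, where 6.07% of all genes were called. Their median log2 fold change was -1.57. The largest decreases were in cyclin B2 (Ccnb2, -3.54, adjusted p = 0.00758), the proliferation marker Mki67 (-3.51, adjusted p = 0.00502), cyclin B1 (Ccnb1, -3.44, adjusted p = 0.00158) and the spindle motor Kif11 (-3.21, adjusted p = 0.00347). These 4 calls held without each of the 6 libraries. Against Tbk1+/-, where 14.7% of all genes were called, 17 fell and 2 rose, the D-type cyclin Ccnd2 (1.62) and its kinase partner Cdk6 (1.15). Against Tak1ΔM/+, where 2.79% of all genes were called, 8 fell and 1 rose, Ccnd2 (1.66, lost without any of the 6 libraries). Ccnb1 had 0.848, 1.58 and 0.996 CPM in double heterozygotes and 10.0, 16.5 and 9.34 CPM in WT. It had 9.55, 14.3 and 8.54 CPM under the triple-genotype label. There 12 of the 30 genes rose against double heterozygotes and none fell, where 2.45% of all genes were called. The rise was led by Ccnb2 (3.72), Mki67 (3.34), Ccnb1 (3.29) and Ccna2 (3.12). Ccnb1 kept that call without each library, while Ccna2 lost it without double-heterozygous replicate 1, Ccnb2 without replicate 1 or 2, and Mki67 without replicate 1 or 3 or replicate 3 of the triple-genotype label. With the mitochondrial share in the fit, 5 of the 13 calls against WT remained (Mki67, Ccnb1, Kif11, Ccna2 and Aurkb), none of the 19 against Tbk1+/-, 2 of the 9 against Tak1ΔM/+ and 8 of the 12 under the triple-genotype label. In Tbk1+/- Ccnb1 had 23.5, 6.11 and 26.1 CPM. In libraries labelled Ripk1-mutant Tbk1+/- against Tbk1+/-, 1 of the 30 was called, where 0.521% of all genes were. It was Cdk6, which rose by 1.18 (edgeR adjusted p = 0.0411, lost without any library but Tbk1+/- replicate 2). In the same comparison none of the genes of the other lists was called.

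**Figure D5:**
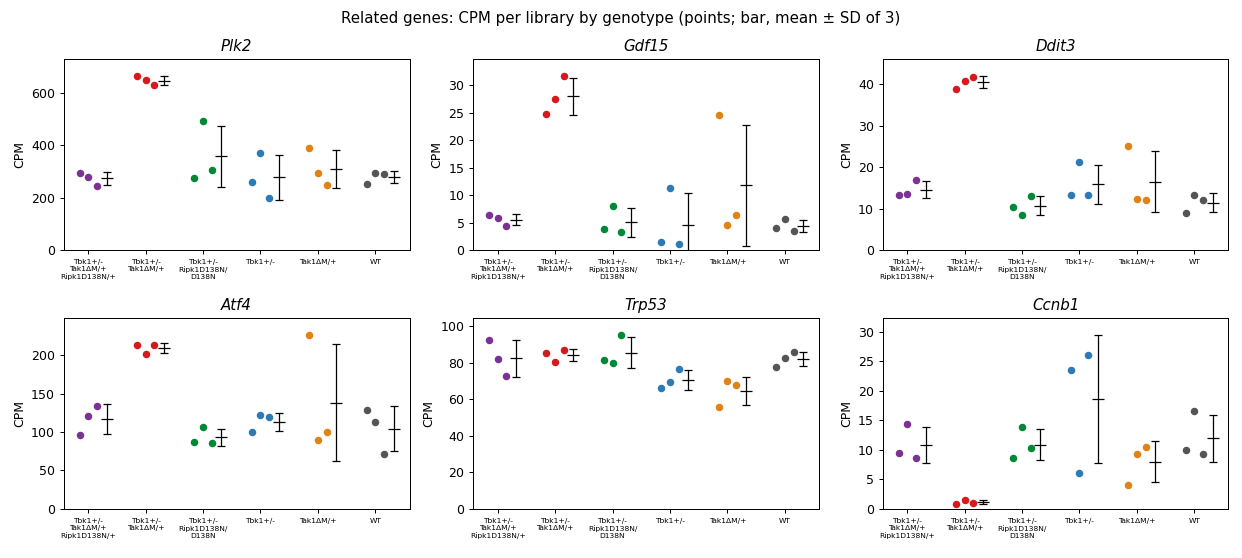
CPM of Plk2, Gdf15, Ddit3, Atf4, Trp53 and Ccnb1 in each library (points) by genotype, with the mean and SD of 3 libraries; each y axis starts at 0. Double heterozygotes are highest for Plk2 and Ddit3 and lowest for Ccnb1. Tak1ΔM/+ replicate 1 lies above them for Atf4 and just below their lowest library for Gdf15.

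Genes with profiles most like a member's were found by the root mean square difference of log2 CPM, each gene centred on its mean over 18 libraries. Nearest to Gadd45b were Irf7 (0.43), Slfn5 (0.43), Tnf (0.44) and Grwd1 (0.45), where Gadd45b varied by 0.92 around its own mean. Nearest to Gadd45a were Rgmb (0.62), Parp12 (0.64), Yars2 (0.66) and Tmem248 (0.66), with 1.19 for Gadd45a itself. Gadd45g was nearest to Arhgap27 (0.30), Zmynd11 (0.30), Taz (0.30) and Uba7 (0.30), with 0.52 of its own. Cdkn1a was nearest to Blvrb (0.12), Akirin1 (0.12), Gng5 (0.13) and Timm8b (0.13), with 0.22 of its own. The 18 libraries share genotypes, so these differences are descriptions of profiles over 6 groups.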

How the data were processed

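RNA of cultured microglia was made into Smart-seq2 and Nextera libraries with 12 PCR cycles and read as 50-base pairs, per the labels' protocols. The deposited values are raw counts per gene. The submitters' processing notes name STAR, featureCounts and mm10, while the labels' protocols name RSEM; the values were whole numbers, and neither names an annotation. Symbols, lengths and GRCm38 positions came from GENCODE M21, which matched 50462 of 50686 identifiers. No column lacked a sample (0 columns).

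Counts were tested with edgeR 4.0.16 (R 4.3.3): trimmed-mean scaling, low-count filter by genotype, quasi-likelihood fit over all 18 libraries with genotype as the only term, and adjustment over 13447 genes at 0.05. Standard errors are the log2 fold change over the root of F. Alternatives used DESeq2 1.42.0 and limma 3.58.1. Simulated counts were used to test the code. Intervals cover the spread between libraries. Replicate numbers did not pair libraries: deviations of same-numbered libraries correlated at -0.04 to 0.07, so no pairing was used.

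Members and gene lists were chosen with earlier results of these data known. Named are all members, Tbk1, Map3k7 and Ripk1, up to 4 called genes per list, direction and comparison by fold change, and the 4 nearest profiles of Gadd45a, Gadd45b, Gadd45g and Cdkn1a. Ripk1 had 58.6 ± 11.3 CPM in double heterozygotes and 20.0 ± 3.52 CPM in WT (SD, n = 3 each).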

Additional observations from a re-analysis of the deposited data

Results flagged for a closer look

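The interaction of the Tbk1+/- and Tak1ΔM/+ lesions asks whether the effect of either lesion differs with the other. In it edgeR called 1 member and 5 genes of the p53, DNA-damage and GADD45-partner lists, where 1.75% of all genes were called. It uses the double-heterozygous and WT libraries in which the members were chosen, so the call of the member is a description. The lists were also chosen with earlier results of these data known. Sex was not balanced across these genotypes, and its part was not tested. Trp53inp1 had -1.63 on the log2 scale and is described above. Among p53 targets, Psrc1 had -2.70 (SE 0.62, adjusted p = 0.0346) and Abhd4 -0.74 (SE 0.18, adjusted p = 0.0491). Among damage and GADD45 partner genes, Brca1 had -3.21 (SE 0.72, adjusted p = 0.0324), Cdk1 -1.52 (SE 0.35, adjusted p = 0.0372) and Ccnb1 -3.49 (SE 0.68, adjusted p = 0.0181). Of 12 libraries left out in turn, the call held in 8 cases for Trp53inp1, 6 for Ccnb1, 4 for Brca1, 3 for Cdk1, 3 for Abhd4 and 2 for Psrc1. None of these 6 calls held in the fit that also holds the mitochondrial share or without the 5 libraries with Tbk1 near WT. Those 5 libraries belong to genotypes outside the interaction, so leaving them out changes the shared filter, scaling and estimate of the spread. The log2 values were then -3.48 for Ccnb1, -3.20 for Brca1, -2.68 for Psrc1, -1.51 for Cdk1 and -0.73 for Abhd4.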

How the results depend on the processing

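Counts of called genes are given as members, then the 48 other p53 targets and regulators tested. As reported they were 4 and 5 (double heterozygotes against WT), 5 and 10 (double heterozygotes against Tbk1+/-), 3 and 2 (double heterozygotes against Tak1ΔM/+), 0 and 3 (the triple label against double heterozygotes), 1 and 2 (interaction), 4 and 7 (all 6 genotypes), and 0 and 0 for Tbk1+/- or Tak1ΔM/+ against WT, Ripk1-mutant Tbk1+/- against Tbk1+/- and the triple label against Tak1ΔM/+. Counts not named below stayed within 1.5 times these.

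DESeq2 called 8 other p53 genes for double heterozygotes against WT, 5 and 5 for double heterozygotes against Tak1ΔM/+, 3 and 7 for the triple label against double heterozygotes, 1 other for Tbk1+/- against WT, 3 and 2 for Ripk1-mutant Tbk1+/- against Tbk1+/-, 3 and 8 for the interaction and 7 members over all 6 genotypes. Limma-voom called 3 others for double heterozygotes against WT, 2 members for the triple label against double heterozygotes, 1 member for Ripk1-mutant Tbk1+/- against Tbk1+/-, and 2 and 1 for the interaction. With DESeq2 size factors 1 member was called for Ripk1-mutant Tbk1+/- against Tbk1+/-. Without the low-count filter there were 5 and 5 for double heterozygotes against Tak1ΔM/+, 3 and 6 for the triple label against double heterozygotes, 2 others for Tbk1+/- against WT, 1 and 1 for Tak1ΔM/+ against WT, 3 and 2 for Ripk1-mutant Tbk1+/- against Tbk1+/-, 3 and 6 for the interaction and 12 others over all 6 genotypes. The stricter filter, a mean of 5 CPM, gave 1 member for the triple label against double heterozygotes, 1 for Ripk1-mutant Tbk1+/- against Tbk1+/- and 2 for the interaction. With the replicate block, numbers that do not pair libraries, there were 1 other for double heterozygotes against Tak1ΔM/+, 2 members for the triple label against double heterozygotes, and 2 and 0 for the interaction. With the mitochondrial share in the fit there were 1 and 1 for double heterozygotes against WT, 1 and 1 for double heterozygotes against Tbk1+/-, 0 and 1 for double heterozygotes against Tak1ΔM/+, 0 and 0 for the interaction and 1 and 1 over all 6 genotypes. Fits of the compared libraries alone gave 3 members for the triple label against double heterozygotes and 0 others for the interaction. Without the 5 libraries with Tbk1 near WT there were 2 others for double heterozygotes against WT, 0 and 1 for double heterozygotes against Tak1ΔM/+, and 0 and 0 for the interaction. These hold none of the 5 libraries, so only the fit shared by all libraries changed. Comparisons with the triple-genotype label and the test over 6 genotypes had no value.

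With 1 library left out in turn, the ranges were 2 to 3 and 1 to 2 (double heterozygotes against WT), 3 to 5 and 6 to 10 (double heterozygotes against Tbk1+/-), 0 to 4 and 0 to 3 (double heterozygotes against Tak1ΔM/+), 0 to 1 and 1 to 2 (the triple label against double heterozygotes), 0 to 0 and 0 to 3 (Tbk1+/- against WT), 0 to 2 and 0 to 3 (Ripk1-mutant Tbk1+/- against Tbk1+/-), 0 to 2 and 0 to 7 (interaction) and 2 to 5 and 3 to 7 (all 6 genotypes). They were 0 throughout for Tak1ΔM/+ against WT and the triple label against Tak1ΔM/+.

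For Ripk1-mutant Tbk1+/- against Tbk1+/-, the log2 fold change of Phlda3 turned to 0.014 with limma-voom and to 0.010 with the replicate block, that of Gadd45g to -0.46 with the mitochondrial share and -0.50 without the 5 libraries, and that of Gadd45a to 0.29 without them. For the triple label against Tak1ΔM/+, Zmat3 turned to -0.0094 without the filter and to -0.011 with the replicate block. With 1 library left out, Gadd45a ranged from -0.51 to 0.10 and Phlda3 from -0.24 to 0.34 in Ripk1-mutant Tbk1+/- against Tbk1+/-. In the triple label against Tak1ΔM/+, Gadd45b ranged from -0.10 to 0.48, Gadd45g from -0.029 to 0.72, Sesn1 from -0.018 to 0.52, Trp53inp1 from -0.33 to 0.027 and Zmat3 from -0.14 to 0.13. All these values had intervals that held 0 as reported. The cause of these changes was not tested.

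Among all genes, called counts were higher with DESeq2 (1421 against 816 as reported for double heterozygotes against WT, 733 against 375 for double heterozygotes against Tak1ΔM/+, 743 against 330 for the triple label against double heterozygotes, 490 against 70 for Ripk1-mutant Tbk1+/- against Tbk1+/-, 679 against 235 for the interaction), and without the filter (1404, 868, 864, 754 and 927 for the same comparisons). DESeq2 called 98 for Tbk1+/- against WT, 82 for Tak1ΔM/+ against WT, 19 for the triple label against Tak1ΔM/+ and 2277 over all 6 genotypes, and without the filter there were 293, 251, 91 and 2850, against 7, 2, 1 and 966 as reported. With the mitochondrial share there were 216 (double heterozygotes against WT), 49 against 1974 as reported (double heterozygotes against Tbk1+/-), 150 (double heterozygotes against Tak1ΔM/+), 2 (Tbk1+/- against WT), 0 (Ripk1-mutant Tbk1+/- against Tbk1+/-), 14 (interaction) and 183 (all 6 genotypes). Fits of the compared libraries alone gave 1365 (double heterozygotes against WT), 574 (the triple label against double heterozygotes), 128 (interaction) and 0 for Tbk1+/- or Tak1ΔM/+ against WT, Ripk1-mutant Tbk1+/- against Tbk1+/- and the triple label against Tak1ΔM/+. The stricter filter gave 119 (Ripk1-mutant Tbk1+/- against Tbk1+/-), 14 (Tbk1+/- against WT), 1 (Tak1ΔM/+ against WT) and 0 (the triple label against Tak1ΔM/+), limma-voom 3 (Tbk1+/- against WT), 1 (Tak1ΔM/+ against WT) and 2 (the triple label against Tak1ΔM/+), and the replicate block 35 (Ripk1-mutant Tbk1+/- against Tbk1+/-) and 149 (interaction). Without the 5 libraries there were 1 (Tbk1+/- against WT), 0 (Tak1ΔM/+ against WT and Ripk1-mutant Tbk1+/- against Tbk1+/-) and 38 (interaction). Depth limits Gadd45a most, with 9 reads in its lowest library.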

Other observations

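Of 6 other cyclin-dependent kinase inhibitor genes, 4 were tested, and Cdkn1b and Cdkn2d were called lower in double heterozygotes in some comparisons. Cdkn1b, which encodes p27, had 7.85, 4.51 and 5.18 CPM in double heterozygotes and 14.1, 10.1 and 17.8 CPM in WT (log2 fold change -1.25, edgeR adjusted p = 0.0317). That call was lost without replicate 1 or 3 of WT or replicate 2 or 3 of double heterozygotes. Cdkn2d, which encodes p19 of the INK4 group, had 6.10, 7.33 and 6.82 CPM in double heterozygotes and 18.7, 13.9 and 19.8 CPM in Tbk1+/- (-1.37, adjusted p = 0.00390), and this call held without each of the 6 libraries. Under the triple-genotype label it had 13.8, 14.3 and 18.2 CPM, 1.20 above double heterozygotes (adjusted p = 0.0307), a call that held without 1 of the 6 libraries.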
